A study of Salmo trutta with 8 samples.

Results

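The most abundant transcripts of the preovulatory follicle were followed here through the 200 brightest probes of the array, out of 21754 probes (0.919%). A probe was a member if its Cy3 brightness, as the background-subtracted intensity averaged over its 2 spots and taken as the median over the arrays that had a usable spot, was among the 200 highest. Control spots and spots with an outlier flag were left out of this ranking, so that 188 members had a level on all 8 arrays and 12 on 7 of them. The members were thus chosen by their Cy3 levels, which are given below as a description without a test.

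The preovulatory follicle of a trout holds a single large oocyte enclosed by granulosa cells and an outer theca layer, and luteinizing hormone drives its maturation and ovulation. The RNA of an intact follicle is a mixture of oocyte and follicle wall RNA, so that fewer cells of a type and less RNA per cell cannot be told apart. On a 2-colour array the RNA of 2 samples competes on the same spot in the dyes Cy3 and Cy5, and a spot brighter than the scanner can record stops at a fixed ceiling in that dye.

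Follicles labelled as brown trout (Salmo trutta), and as brook trout in the deposited design text, were incubated for 18 h at 15 °C with salmon luteinizing hormone (sLh) or without it (control). The labels name 4 females, and each female gave an sLh sample and a control sample that shared 2 arrays with the dyes swapped between them. All arrays with sLh in Cy5 were on 1 slide and the rest on another, so that the effect of the slide and that of the dye cannot be told apart. Females 3 and 4 gave nearly the same log2 ratios (r = 0.994 across the 18276 probes tested, 0.986 across the 200 members), with a robust SD of their difference of 0.064 over the probes tested, against 0.0682 for the array noise of such a difference and 0.339 to 0.540 for the other pairs of females. They were counted as 1 sample, so that n = 3.

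The sequences behind the members are known here only by the names of the array design. The gene table used here has 61581 rows, none of which holds 1 of the probe or sequence names (0 of 21754), so no member is given a gene name or a function and the labelled tissue could not be checked against marker genes. Of the 200 members, 199 carried the prefix Omy (99.5%), the usual code of rainbow trout (Oncorhynchus mykiss), and 1 the prefix Ssa, that of Atlantic salmon (Salmo salar), while 85.2% of the 18276 probes tested carried Omy. The smaller of the 2 probe sets of the design, with 8.14% of the probes tested, held 45 members (22.5%). Names made of S and a number were given to 179 members (89.5%), against 59.0% of the probes tested.

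The median member had a Cy3 level of 48592 intensity units, 224 times that of the median probe tested (217). The highest level was 65379.8, in Omy#S19696542, and the lowest was 33709, in Omy#S34313623. Brightness depends on the probe as well as on its transcript, so the rank of a member is not a rank of RNA amount. The brightest members were also at the Cy3 ceiling on 4 to 7 arrays, so that their order among themselves is not meaningful. The 10 brightest members were Omy#S19696542, Omy#S15246744, Omy#BX909624, Omy#S15341322, Omy#TC163993, Omy#S34422594, Omy#S15322318, Omy#S15288681, Omy#S19718166 and Omy#S29443356, with median Cy3 levels between 64704 and 65379.8. The edge of the list was not a gap. Omy#S34315420 and Omy#S34313623, the last inside, stood at 33742 and 33709, and Omy#S15335413 and Omy#S24637877, the first outside, at 33667 and 33648.

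The members took a large share of the signal of every array. Their share of the summed Cy3 level was 24.7, 26.1, 20.2 and 20.1% on the arrays with sLh of females 1 to 4 in Cy3, against 25.9, 23.1, 29.5 and 27.1% on the arrays with control in Cy3. In Cy3 the share was thus lower with sLh than with control in females 1, 3 and 4 and higher in female 2. In Cy5 the shares were 21.9, 20.8, 15.3 and 16.4% for sLh, against 17.9, 16.2, 22.3 and 23.5% for control. In Cy5 the share was lower with sLh in females 3 and 4 and higher in females 1 and 2, so that female 1 differed in direction between the dyes. These are shares of a signal that is held down at the ceiling. In Cy3, the array with the lower share had the higher median level over all probes tested in females 2, 3 and 4. In female 1 it had the lower one. Whether the shares follow the brightness of the array was not tested. All values of sLh and control here follow the dyes that the labels give. A list that came with the arrays holds 788 probes with a value for each array, and the labels give 788 of these probes the reverse sign, so the direction of change is not settled by the files. If the labels were crossed, the values of sLh and control would change places throughout.

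The median Cy3 level of the members was 41438, 38157, 61506 and 55749 on the sLh arrays of females 1 to 4, against 48733, 64299, 38300 and 43765 on the control arrays. The median of all probes tested moved in the same way between arrays (192, 177, 328 and 333 on the sLh arrays, against 220, 318, 161 and 190 on the control arrays). The levels of single members below are as recorded, so a difference between 2 arrays also holds this difference in overall brightness, and the ratios are normalized.

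**Figure D1:**
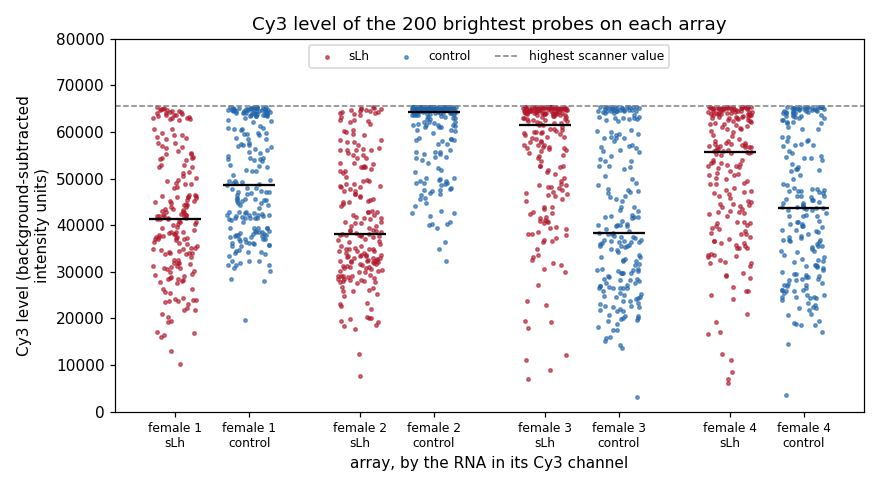
Cy3 level of each of the 200 members on the 8 arrays, as background-subtracted intensity units, by female and by the RNA in the Cy3 channel (sLh or control). Points are members, bars are medians and the dashed line is the highest value of the scanner. The control array of female 2 has the highest median, 64299, and the sLh array of female 2 the lowest, 38157. The highest points lie just under the line on every array.

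Membership varied between arrays. Between 154 and 179 members were among the 200 brightest probes of a given array, and 79 were among them on all 8 arrays. The 200 brightest probes of the 4 arrays with sLh in Cy3 and those of the 4 arrays with control in Cy3 shared 146 (73.0% of either list). With the Cy5 level in place of Cy3, 187 of the members (93.5%) remained.

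The scanner ceiling held back most member spots in Cy5 and many in Cy3. Of the 400 member spots of an array, 317, 358, 375 and 359 were at the ceiling in Cy5 where Cy5 held the sLh RNA of females 1 to 4, against 356, 400, 343 and 313 where it held control RNA. In Cy3 there were 43, 36, 193 and 111 with sLh RNA, against 99, 252, 72 and 85 with control RNA. Cy5 was thus at the ceiling for 88.2% of the member spots over the 8 arrays and Cy3 for 27.8%. Among all 43508 spots of an array, between 43 and 262 were at the Cy3 ceiling and between 343 and 599 at the Cy5 ceiling.

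The saturation flag of the scanner software did not count the Cy3 ceiling on 4 of the 8 arrays. On the 4 arrays with control in Cy3, the software took 65528 as the Cy3 saturation value while the brightest spots read 65527, and 0 spots were flagged. On the 4 arrays with sLh in Cy3, the saturation value was 65527, the brightest spots read 65528, and every spot at the ceiling was flagged. By the flag, 12.0% of the member spots were saturated in Cy3, and by the ceiling 27.8%. A spot was therefore counted as at the ceiling if its median signal was within 1 unit of the highest of that array and dye.

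**Figure D2:**
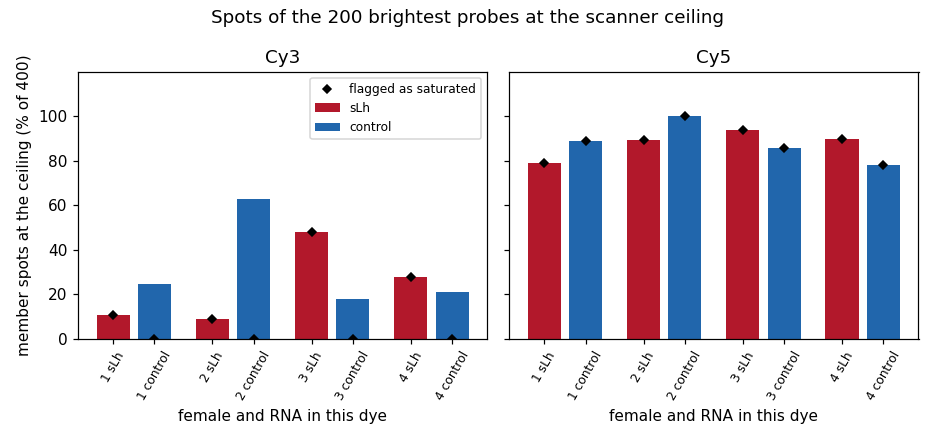
Percent of the 400 member spots at the scanner ceiling, in Cy3 (left) and Cy5 (right), by female and by the RNA in that dye. Bars are spots at the ceiling and diamonds are spots flagged as saturated by the scanner software. The diamonds are at 0 for the 4 control samples in Cy3, where 18.0 to 63.0% of the spots were at the ceiling.

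By probe, with both usable spots at the ceiling, 200 members reached the ceiling in Cy5 on at least 1 array, 193 on at least 4 arrays and 94 on all 8. In Cy3, 140 members reached it on at least 1 array, 40 on at least 4 and 0 on all 8. On 125 members both dyes were at the ceiling of the same array at least once. The members with both dyes at the ceiling on the most arrays were Omy#S15246744, Omy#S29443356, Omy#S22916694 and Omy#S23931758, each on 7 arrays. Omy#TC163993 was 1 of 7 members with both dyes at the ceiling on 6 arrays. No member was below the ceiling in both dyes on all 8 arrays (0 of 200). The control channel was at the ceiling on all 8 arrays for 15 members, which have only a lower bound for their control level. The sLh channel was there on all 8 arrays for 0 members, and on 7 arrays at most. On at least 4 arrays the order was the reverse, with the sLh channel at the ceiling for 151 members and the control channel for 138.

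Where both dyes were at the ceiling, the log2 ratio of sLh over control did not vary between members. On each array, the ratios of all such members lay within 0.0006 of each other, at the offset that the loess normalization gave to the brightest spots. With sLh in Cy5 it was -0.75, -0.22, -2.03 and -1.68 in females 1 to 4, and with sLh in Cy3 it was 1.27, 1.63, 0.09 and 0.14. These signs, too, rest on the labels.

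**Figure D3:**
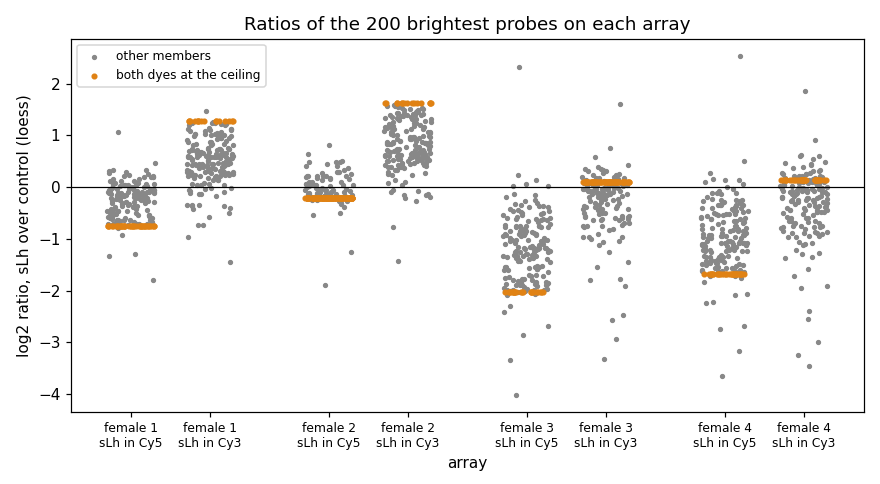
Log2 ratio of sLh over control after loess, for the 200 members on each of the 8 arrays, by female and by the dye of the sLh RNA. Orange points are members with both dyes at the ceiling of that array and grey points are the others. The orange points lie on 1 line per array, between -2.03 and 1.63.

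The ratios of the members differed between the 2 arrays of a female. Their median was -0.34, -0.22, -1.28 and -1.10 with sLh in Cy5 in females 1 to 4, and 0.58, 0.86, 0.05 and -0.08 with sLh in Cy3. Within a female, the median difference between the arrays (sLh in Cy5 minus sLh in Cy3) was -0.78, -0.96, -0.97 and -0.73 in the members, and 0.05, 0.05, 0.07 and 0.05 over all probes tested. Across the members, the ratios of the 2 arrays correlated with r = -0.06, 0.18, 0.589 and 0.692, and across all probes tested with r = 0.614, 0.805, 0.844 and 0.825. Probes are not independent replicates, and the members share the ceiling.

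With the 2 arrays of a female averaged, no member was called. Over all 18276 probes tested, limma called 0 probes at an adjusted p of 0.05 (0%), the lowest adjusted p being 0.317, and the members had an adjusted p of 1.00 throughout. At an unadjusted p under 0.05 there were 831 probes in all (4.55%), 411 higher with sLh (2.25%) and 420 lower (2.3%), and of the members 2 were higher and 0 lower. At the threshold of the study's methods, a fold change above 1.8 with an unadjusted p under 0.01, 97 probes were selected (0.531%), 54 higher with sLh (0.295%) and 43 lower (0.235%), and 0 of the 200 members. The mean ratio of 0 members was more than 1.8-fold higher with sLh (1.32% of all probes tested), and that of 3 members was more than 1.8-fold lower (2.27%). All 3 replicates were above 0 for 9 members (4.5%, against 11.8% of all probes tested) and below 0 for 3 (1.5%, against 12.6%).

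The replicates did not run the same way. The median log2 ratio of the members was 0.12 for female 1, 0.41 for female 2 and -0.71 for the mean of females 3 and 4, against 0.0006, -0.01 and 0.01 over all probes tested. In females 3 and 4, 83 members were more than 1.8-fold lower with sLh and 1 was more than 1.8-fold higher. This was 42.0% of the members either way, against 13.0% of all probes tested. In each of females 1 and 2 it was 2.5% of the members, against 5.47 and 6.43% of all probes tested. The median over the members of the mean ratio was -0.07, with a range of -1.49 to 0.62. These ratios hold the loess offsets at the ceiling. Omy#S29443356, with both dyes at the ceiling on every array of females 3 and 4, stood at -0.87 there, past 1.8-fold. Omy#S15246744, with both dyes at the ceiling on every array of females 1 and 2, stood at 0.26 and 0.71. Such a ratio is the offset alone. How far the offset makes up the counts and medians above was not tested.

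The Cy3 channel, in which 41 members had no spot at the ceiling on any array, gave a second view of the same samples. Here the level on the array with sLh in Cy3 was divided by that on the array with control in Cy3, after centring on the median ratio of the probes tested, so that the comparison ran between the slides. The median Cy3 ratio of these 41 members, on the log2 scale, was -0.32 for female 1, 0.10 for female 2 and -0.90 for females 3 and 4. Their ratio from both dyes was 0.10, 0.40 and -0.93. In females 3 and 4 the ratio from Cy3 alone was more than 1.8-fold lower for 22 of the 41 members and more than 1.8-fold higher for 1, which was 56.1%, against 20.3% of all probes tested. In female 1 the same share was 7.5%, against 19.9% of all probes tested, and in female 2 it was 2.44%, against 13.4%. Over all 200 members, which include those at the ceiling, the median was -0.23, 0.12 and -0.51. In females 3 and 4, 70 of the 200 were more than 1.8-fold lower and 7 more than 1.8-fold higher (38.5%). The 41 were picked a second time by their Cy3 levels, as they had to stay below the ceiling. The sLh arrays of females 3 and 4 were brighter than their control arrays (medians of 328 and 333 over all probes tested, against 161 and 190). Staying below the ceiling there can favour members with a low ratio, so the 56.1% cannot be told apart from an effect of the pick. How far the pick sets it was not tested. Since Cy3 levels chose the members and the 41, these ratios are a description and were not tested.

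Among the members, Omy#S15341089 and Omy#S15340932 had the lowest mean ratios. The Cy3 level of Omy#S15341089 was 17119, 30401, 6922 and 6160 on the sLh arrays of females 1 to 4, against 49494, 63778, 65451 and 65405 on the control arrays. The highest sLh value was below the lowest control value. Such a lack of overlap, here and in the members below, was not counted over all probes tested. It is a description only, as these members were picked by their values and females 3 and 4 count as 1 sample. Its log2 ratio was -1.49 ± 1.93 (SD, n = 3), its replicates stood at -1.01 (female 1), 0.15 (female 2) and -3.61 (females 3 and 4), and it had an adjusted p of 1.00 from limma.

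Omy#S15340932 showed the same order of its channels. Its Cy3 level was 20217, 19163, 8823 and 7071 with sLh, against 56976, 65447, 65314 and 65446 with control, again without overlap. The log2 ratio was -1.44 ± 1.53 (SD, n = 3) and was below 0 in all 3 replicates (-0.87, -0.27 and -3.17), with an adjusted p of 1.00 from limma. From Cy3 alone the mean log2 ratio was -2.15, without a test. The control channel of both members was at the ceiling on 6 of the 8 arrays, which holds down their control level.

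Omy#S22927806 was the third member with a mean more than 1.8-fold lower, at -0.87 ± 1.19 (SD, n = 3). Its Cy3 level was 21713, 29052, 19453 and 12344 with sLh, against 49369, 47334, 65446 and 65420.0 with control. The groups did not overlap in these recorded levels, which also hold the brightness of the arrays. In female 2 the sLh array was dimmer than the control array, with medians of 177 and 318 over all probes tested. The normalized ratio from both dyes was 0.14 in female 2.

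The highest mean ratio belonged to Omy#S34315319. Its Cy3 level was 65040, 60018, 65314 and 65156 with sLh in females 1 to 4, against 42615, 36341, 13570 and 18641 with control. The groups did not overlap, and the sLh channel was at the ceiling on 7 of the 8 arrays. The log2 ratio was 0.62 ± 0.42 (SD, n = 3). Its replicates stood at 0.53, 1.08 and 0.26, with an unadjusted p of 0.0373 and an adjusted p of 1.00 from limma.

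The other member with an unadjusted p under 0.05, Omy#S34425175, had a smaller ratio of 0.31 ± 0.02 (SD, n = 3). Its unadjusted p from limma was 0.0379 and its adjusted p 1.00. Its Cy3 levels overlapped, with 37362, 31247, 60603 and 59336 with sLh, against 34259, 56055, 15781 and 16987 with control. From Cy3 alone its mean log2 ratio was 0.34, with 1.05 in females 3 and 4, without a test. The small SD was thus not seen in Cy3 alone. Not all of its Cy3 spots were below the ceiling. The second highest mean ratio, 0.43 ± 0.91 (SD, n = 3) in Omy#BX909624, rests on spots at the ceiling in both dyes on 4 arrays, and its array with sLh in Cy5 of female 1 was left out for an outlier flag.

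**Figure D4:**
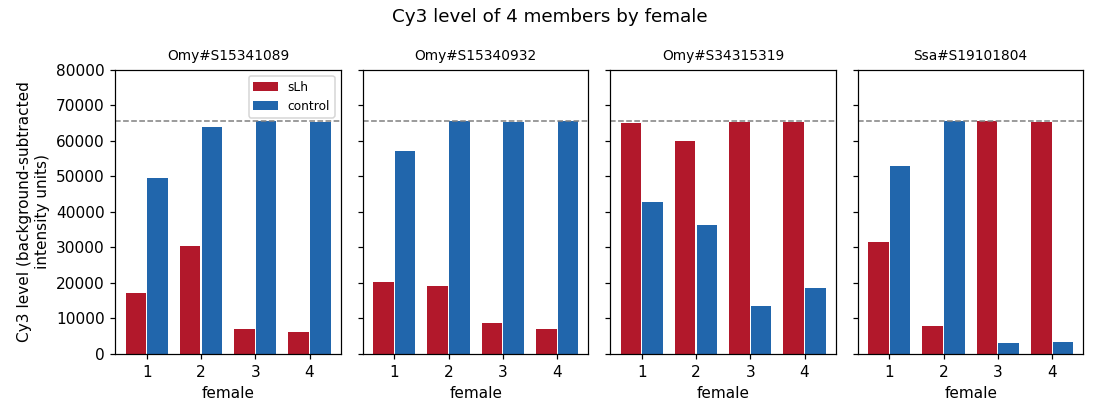
Cy3 level, as background-subtracted intensity units, of Omy#S15341089, Omy#S15340932, Omy#S34315319 and Ssa#S19101804 in each female, with sLh and with control. The dashed line is the highest value of the scanner. The sLh bar is below the control bar in all 4 females in the first and the second panel and above it in the third, while in the fourth it is below in females 1 and 2 and above in females 3 and 4.

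The spread between untreated follicles of different females depended on how the level was taken. The SD of the normalized log2 control level, over the 3 replicates, had a median of 0.33 in the members and 0.19 over all probes tested, but an SD above 0.5 was found in 14 members (7.0%), against 11.3% of all probes tested. The loess offsets at the ceiling enter these SDs. The control levels in Cy3 and in Cy5 of a female differed by a median of 0.56 on the log2 scale in the members and 0.20 over all probes tested. The Cy3 levels of duplicate spots differed by a median of 0.07 in the members and 0.12 over all probes tested. From the control arrays in Cy3 alone, each centred on its median, the median SD was 0.34 in the members and 0.34 over all probes tested. A member at the ceiling on all of these arrays takes its SD from the brightness of the arrays alone. Omy#S15246744, at 65377, 65445, 65332 and 65272 in control, had an SD of 0.43. Over the 51 members with no Cy3 control spot at the ceiling, the median SD was 0.31. Probes next in brightness had lower values, with 0.285 at ranks 201 to 400, 0.25 at ranks 401 to 800 and 0.22 at ranks 801 to 1600. From both dyes these were 0.24, 0.22 and 0.20. With median centring in place of loess the median SD of the members was 0.18, and without females 3 and 4 it was 0.14.

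The member with the largest spread was Ssa#S19101804, also the 1 member with the salmon prefix, with an SD of 1.26. Its Cy3 level was 31570, 7732, 65444 and 65296 with sLh in females 1 to 4, against 52757, 65446, 3051 and 3460 with control. It was lower with sLh in females 1 and 2, and near the ceiling with sLh but low in control in females 3 and 4. Its log2 ratio was -0.12, -1.66 and 2.08 in the replicates, with a mean of 0.10 ± 1.88 (SD, n = 3).

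The next largest spread was that of Omy#S15286784, with an SD of 0.74. Its Cy3 level in control follicles was 19568 in female 1, against 58086, 60337 and 63144 in females 2 to 4, so that female 1 stood below the other females. The smallest spreads were those of Omy#S15299511 (SD 0.04) and Omy#S19719110 (SD 0.04). The Cy3 control levels of Omy#S15299511 were 37375, 64516, 21840.0 and 22766 in females 1 to 4, and from Cy3 alone its SD was 0.34. The small spread of this member was thus not seen in Cy3 alone.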

How the data were processed

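RNA of sLh-treated and control follicles of 4 females was measured on 8 dual-channel Agilent arrays. The authors deposited their scanner files, made with Agilent Feature Extraction 10.7.3.1 by the submitters' processing notes, with the intensity of each spot and its background in both dyes and flags for outlying, saturated and above-background spots. They also deposited a list of 788 probes with log2 values per array, whose normalization is not given in the sources used here. Only its sign and which members it holds were used. A table of processed values was not used here. The members and lists were chosen with earlier results of these data known.

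For the ratios, median signals were corrected with normexp (offset 50, fitted on spots without an outlier flag) and normalized by loess within arrays. The R packages were limma 3.58.1, jsonlite 2.0.0 and data.table (version 1.17.8) under R 4.3.3, and plots used matplotlib 3.10.9 in Python 3.11.15. Saturated spots were kept, spots of a probe and arrays of a female were averaged, and females 3 and 4 were counted as 1 replicate. Probes well above background in the sLh channel or in the control channel on at least 4 arrays were tested against 0 with lmFit and eBayes and Benjamini-Hochberg adjustment. Control levels came from the same ratios after Aquantile normalization. Sign-flip permutations of 3 replicates cannot go below p = 0.25. The number of arrays limits the precision. Named members were the 10 brightest, those at the edge of the list, the 2 highest and 2 lowest in ratio, the 2 largest and 2 smallest in spread, up to 5 past the study's threshold and up to 5 at the ceiling in both dyes on most arrays. Omy#S22927806 and Omy#S34425175 were named after their values were seen. The fit was tested on simulated data. Other signals, normalizations, filters, replicates, rankings and list sizes were tried, and the ceiling and Cy3-only settings were added after seeing the data.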

Additional observations from a re-analysis of the deposited data

How the results depend on the processing

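At an adjusted p of 0.05, limma called 0 members in the main setting, and 0 were called in each of 22 alternatives. With other rankings and list sizes the members were read from the main fit. That fit called 0 of all 18276 probes tested, so the 0 was fixed there. The rest were fits of their own, by limma apart from the methods' t-test. At the fold and p of the study's methods, 0 members passed in the main setting and in each of the 22 alternatives. In the main setting 0.531% of all probes tested passed. For the alternatives that were fits of their own, the share of all probes called or passing was not counted. The 0 members there thus cannot be set against other probes. Only 37 members could be tested with ceiling spots left out and 40 with flagged saturated spots left out. At an unadjusted p under 0.05, the percent of members was 1 in the main setting, 0 without female 1 and 10 without females 3 and 4, against 4.55, 2.73 and 7.29 of all probes tested. With ceiling spots left out it was 8.11% of those 37 members, against 4.62% of all probes tested. With flagged saturated spots left out it was 7.5% of those 40, against 4.61%. The median log2 ratio of the members was -0.07 in the main setting, with an SD of 0.581 over the replicates. It lay between -0.32 and 0.24 over the alternatives, so its sign was not kept. It was -0.28 over those 37 members with spots at the ceiling left out, and it was -0.32 without female 2 and 0.24 without females 3 and 4. The 4 members with the highest and lowest ratios kept their sign in every alternative that gave them a p. They were picked by this ratio and the alternatives reuse the same arrays, so a kept sign is no support for it. Between replicates, Omy#S15341089 was positive in female 2, and Omy#BX909624 was at -0.54 in females 3 and 4. Omy#S15340932 and Omy#S34315319 had the same sign in all replicates. With ceiling spots left out, none of the 4 had a p. With flagged saturated spots left out, Omy#S15341089 and Omy#S15340932 had a p, at ratios of -2.72 and -1.64. Omy#BX909624 and Omy#S34315319 did not, so their signs were not tested without saturated spots. Omy#BX909624 went down to 0.0089 without female 1. The median SD between untreated follicles, 0.33, ranged from 0.14 (without females 3 and 4) to 0.42 (without female 1) when replicates were left out, and was 0.18 with median centring in place of loess. The percent of Cy5 spots at the ceiling was 97.6% in the 100 brightest probes and 56.1% in the 400 brightest. Between 182 and 198 of the members were kept by other rankings. The ratios are paired by female in every setting. The ceiling limits what these levels and ratios can show.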
